A study of Mus musculus with 4 samples.

Results

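The 10 genes described here encode the proteins that bring long-chain fatty acids into liver cells, carry them through the cytosol and join them to coenzyme A. They are Cd36, Slc27a2 and Slc27a4 (uptake), Fabp1, Fabp2 and Fabp5 (binding) and Acsl1, Acsl3, Acsl4 and Acsl5 (activation). They were taken by gene symbol from the deposited count files, through the GENCODE M21 annotation, and all 10 were found among 37315 gene identifiers. RNA of liver tissue was sequenced from wild-type mice (WT) and from mice with Fto knocked out (KO), all C57BL/6 and 23 weeks old, with 2 libraries for each genotype. Fto encodes an enzyme that removes methyl groups from RNA. The labels name no allele, no Cre driver and no treatment, and they do not say whether the libraries of a genotype came from separate animals. The spread that p-values measure is therefore only that between these libraries, and it may be technical.

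Long-chain fatty acids reach the liver bound to albumin and in lipoprotein remnants. CD36, a scavenger receptor of the plasma membrane, and the fatty acid transport proteins of the SLC27 family help them enter the cell, and fatty acid binding proteins (FABPs) hold them in solution. Long-chain acyl-CoA synthetases (ACSLs) then form the acyl-CoA that is burned in mitochondria and peroxisomes or built into triglycerides and phospholipids. Many of these genes are known targets of PPARα, a nuclear receptor that fatty acids activate, and Cd36 is also a known target of the related receptor PPARγ.

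The 250 bases before the RefSeq start are shown for a gene that was lower in KO and for another that was higher. They are also shown for the gene with the highest level, because these upstream sequences differ in base content and motifs. The sequences are from RefSeq (GRCm38.p6, the assembly of mm10), which had an entry for 9 of the 10 symbols, all but Fabp5. Capitals mark matches to DR1, the repeat of AGGNCA with 1 base between its copies to which PPARs can bind, or to TATAAA, each searched on both strands. The windows are chr5:17835897-17836146 on the minus strand for Cd36, chr6:71199629-71199878 on the plus strand for Fabp1 and chrX:142390536-142390785 on the minus strand for Acsl4.
Cd36: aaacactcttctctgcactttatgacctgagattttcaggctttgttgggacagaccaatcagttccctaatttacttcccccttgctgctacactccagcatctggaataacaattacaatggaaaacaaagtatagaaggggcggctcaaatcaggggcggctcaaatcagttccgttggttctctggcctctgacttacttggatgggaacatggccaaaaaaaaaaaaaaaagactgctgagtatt
Fabp1: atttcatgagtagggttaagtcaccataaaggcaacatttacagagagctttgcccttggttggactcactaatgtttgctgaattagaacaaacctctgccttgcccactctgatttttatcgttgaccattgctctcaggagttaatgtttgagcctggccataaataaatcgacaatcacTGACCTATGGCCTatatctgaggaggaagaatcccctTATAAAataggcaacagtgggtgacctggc
Acsl4: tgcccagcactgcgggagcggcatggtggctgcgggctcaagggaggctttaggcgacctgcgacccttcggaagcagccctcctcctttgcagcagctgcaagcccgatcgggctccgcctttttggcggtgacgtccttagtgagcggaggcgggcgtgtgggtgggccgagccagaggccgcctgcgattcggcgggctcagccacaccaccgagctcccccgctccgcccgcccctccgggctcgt
Fabp1 was the only one of the 9 genes with a match to either motif. Its direct repeat, TGACCTATGGCCT on the printed strand, lies at positions -67 to -55 from the RefSeq start, and its TATAAA at -30 to -25, with no overlap between them. Among 32851 promoter windows of this length 0.338% held the direct repeat and 12.4% held TATAAA. The single half-site AGGTCA, found in 14% of windows, occurs as TGACCT in the Cd36 window at -228 to -223, in that of Slc27a2 at -220 to -215 and in that of Fabp1 at -67 to -62, inside the direct repeat, and at -9 to -4. The Acsl4 window is 70.8% G and C, against 43.2% for Cd36, 42.8% for Fabp1 and a median of 52.4% over all windows. A match describes letters and not binding, and Cd36 has 6 annotated transcripts, some of which start elsewhere. GENCODE M21 places some starts differently from RefSeq. Its Fabp1 begins at 71199827, inside the window, so the TATAAA falls within that transcript and the direct repeat before it. The Cd36 and Slc27a2 windows lie inside the GENCODE genes.

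Total counts were between 39549592 and 44689114 per library. Fto was at 41.2 and 33.9 CPM (reads scaled to library size) in WT and at 13.1 and 12.1 CPM in KO (log2 fold change -1.57, SE 0.195, adjusted p = 0.0109). As a check of the tissue label, 7 hepatocyte genes summed to between 76500 and 95800 CPM. In both genotypes the library numbered 2 differed from that numbered 1 by transcript length. Tested protein-coding genes whose longest transcript has up to 1000 bases were higher in replicate 2 by a median log2 of 0.35 (WT) and 0.18 (KO), and those over 8000 bases stood at -0.48 and -0.44.

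Cd36 fell, and Fabp5 and Acsl4 rose, in KO liver. With edgeR's quasi-likelihood test, adjusted over all 13836 tested genes, 3 of the 10 genes were called at an adjusted p under 0.05, 2 higher and 1 lower, where 1.91% of all tested genes were called (0.961% higher, 0.947% lower). All 10 passed the filter on low counts. The genotypes' libraries did not overlap for 9 of the 10, 6 with KO lower and 3 with KO higher. Over all tested genes this held for 42%, with 20.4% lower and 21.6% higher. The median log2 fold change of the 10 was -0.32, beside 0.0058 over all tested genes.

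**Figure D1:**
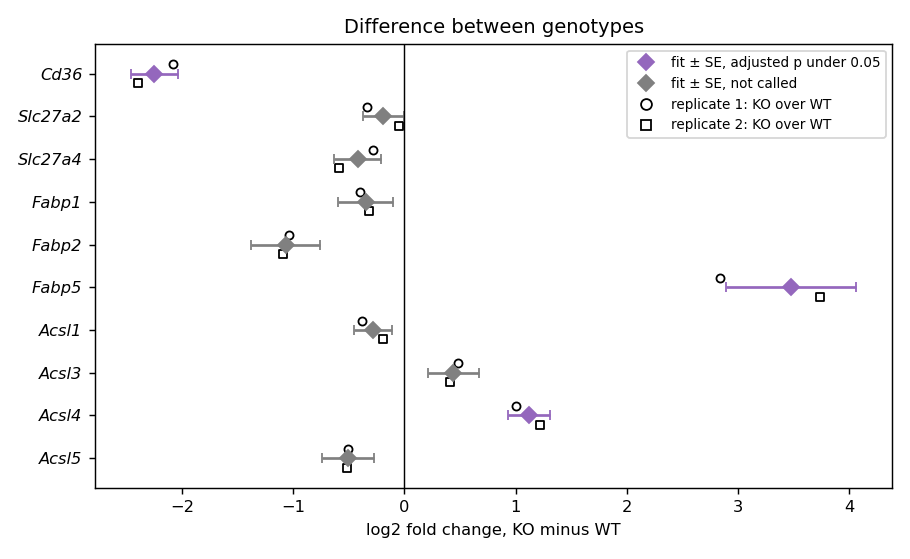
Log2 fold change of KO minus WT for each gene (x axis), with diamonds for the fitted value and bars for its SE; circles and squares give the KO over WT ratio within the libraries numbered 1 and 2. Cd36 stands at -2.25, Acsl4 at 1.12 and Fabp5 at 3.48, where the SE is 0.585, and the other 7 genes lie between -1.07 and 0.44 and were not called.

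Among the uptake genes, only Cd36 was called. Cd36 (ENSMUSG00000002944, chromosome 5, 17781690 to 17888801, mm10) was at 132 and 175 CPM in the WT libraries and at 31.3 and 33.1 CPM in the KO libraries. Both KO libraries were far below both WT libraries and close to each other. The level fell 4.77-fold to 21% of WT (log2 fold change -2.25, SE 0.208, adjusted p = 0.00323), from 154 ± 30.8 to 32.2 ± 1.33 CPM (SD, n = 2 each). Comparing libraries of equal number, KO over WT was -2.08 (number 1) and -2.40 (number 2) on the log2 scale. In whole tissue, fewer cells that express a gene and less of its RNA in each cell cannot be told apart. Cd36 is known to be expressed in macrophages, endothelial cells and fat cells as well as hepatocytes, so summed levels of markers of those cells are given further on.

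Slc27a2, which encodes the very-long-chain acyl-CoA synthetase and transport protein FATP2 (chromosome 2, 126552407 to 126588243), was at 2281 and 2307 CPM in WT and 1802 and 2225 CPM in KO. The lower KO library lay well below WT and the other only just below it. The log2 fold change of -0.19 (SE 0.182, adjusted p = 0.759) was about the size of its SE. Slc27a4, which encodes FATP4 (chromosome 2, 29802634 to 29817522), was at 55.8 and 49.8 CPM in WT and 45.8 and 33.1 CPM in KO. Its log2 fold change of -0.42 (SE 0.213, adjusted p = 0.475) did not pass. Of the reads of the 3 uptake genes, Cd36 made up 5.34% (95% Wilson interval 5.21 to 5.48) and 6.93% (6.77 to 7.09) in WT, and 1.66% (1.58 to 1.75) and 1.45% (1.37 to 1.53) in KO. These intervals cover counting error only. Slc27a2 supplied between 91.1% and 97.1% of the class in every library. The summed level of the class was 2500 ± 44.8 CPM in WT and 2085 ± 291 CPM among KO libraries (SD, n = 2 each).

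**Figure D2:**
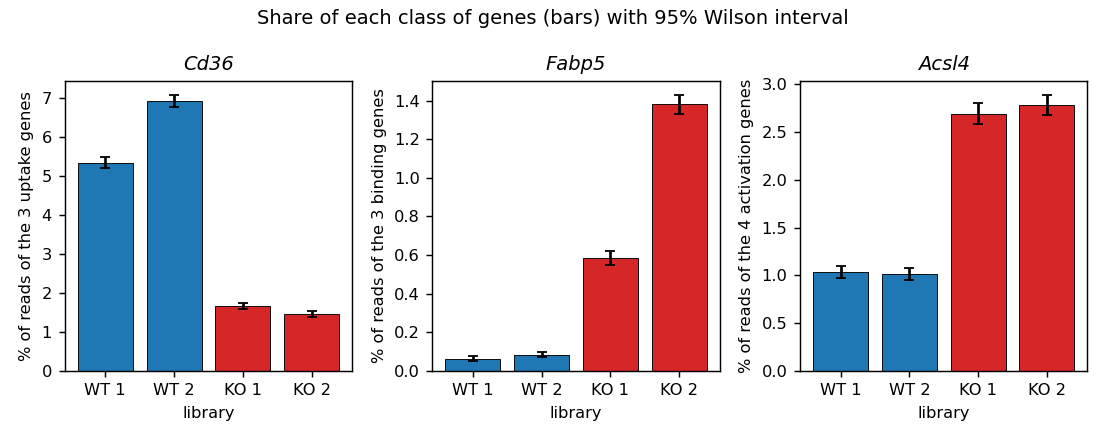
Share of the reads of its class that Cd36, Fabp5 and Acsl4 supplied in each library (bars, percent, axis from 0), with 95% Wilson intervals for counting error. Cd36 is at 5.34% or more in WT and 1.66% or less in KO, Acsl4 at 1.03% or less in WT and 2.69% or more in KO, and Fabp5 is at 0.584% in one KO library and 1.38% in the other.

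Of the binding proteins, Fabp5 rose and the other two, Fabp1 and Fabp2, did not pass the test. Fabp5, the epidermal type of FABP, which macrophages and several epithelia also express (ENSMUSG00000027533, chromosome 3, 10012548 to 10016607), was at 2.74 and 5.07 CPM in WT, on 116 and 193 reads, and at 19.6 and 67.7 CPM in KO, on 904 and 2710 reads. Both KO libraries were above both WT libraries, but they differed 1.79 on the log2 scale from each other. The fitted increase was 11.2-fold (log2 fold change 3.48, SE 0.585, adjusted p = 0.0306), from 3.90 ± 1.65 to 43.6 ± 34.1 CPM (SD, n = 2 each). The size of the increase depended on the KO library used: without KO replicate 2 the log2 fold change was 2.32, and without KO replicate 1 it was 4.12. Fabp5 was no longer called if WT replicate 1 (adjusted p = 0.685) or WT replicate 2 (0.796) was left out, with library size alone (0.0661), with no filter on low counts (0.552), with limma-voom (0.0513) and with the trend on transcript length removed (0.0671). The annotation holds 5 processed pseudogenes that match the Fabp5 transcript over 336 to 409 bases at 93.6% to 98.3% identity. The count files give these copies between 0 and 2 reads over all 4 libraries, and reads that match several places may have been left out of Fabp5, so its level is uncertain.

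Fabp1, the liver type (ENSMUSG00000054422, chromosome 6, 71199827 to 71205023), had the highest level per kilobase of the 10 genes in every library. It was at 4326 and 5944 CPM in WT and 3286 and 4767 CPM in KO, so the genotypes overlapped. Its log2 fold change was -0.35 (SE 0.245, adjusted p = 0.635). This is the gene with the PPAR-type repeat and TATAAA shown above. Fabp2, the intestinal type, which mouse liver also transcribes (chromosome 3, 122895072 to 122899506), was at 90.5 and 153 CPM in WT and 44.1 and 71.7 CPM in KO. The KO libraries lay below the WT libraries, while replicate 2 was above replicate 1 in both genotypes. The log2 fold change of -1.07 (SE 0.314) did not pass (adjusted p = 0.177), although the unadjusted p was 0.00977. DESeq2's Wald test called it (adjusted p = 0.0148), as did edgeR without the filter on low counts (4.6e-05). So did edgeR with a term for replicate number (3.08e-09), and with that term and the length trend removed (1.08e-08), though no label pairs the libraries. With 1 library left out, the log2 fold change ranged from -1.47 to -0.65. Of the intestinal epithelium markers, 6 of 10 had no read in any library, and Lgals4, with 35.1 to 43.1 CPM, supplied nearly all of their summed 35.2 to 43.3 CPM.

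The 3 binding genes share a pattern between the libraries of 1 genotype. Replicate 2 was above replicate 1 by 0.46 in WT and 0.54 in KO on the log2 scale for Fabp1, by 0.76 and 0.70 for Fabp2 and by 0.89 and 1.79 for Fabp5. The longest transcripts of Fabp1 and Fabp2 are short, 553 and 965 bases, and the values of these 2 genes exceed the 0.35 and 0.18 that transcripts of up to 1000 bases showed at the median. Fabp5 has a longest coding transcript of 987 bases, but its longest transcript of any type, by which the trend on length was fitted, has 3238. Between libraries of equal number, the log2 ratio of KO over WT for Fabp2 was -1.04 and -1.09, and with the trend on length removed its log2 fold change was -0.97 (adjusted p = 0.0747). Fabp1 supplied 97.9% and 97.4% of the reads of the 3 genes in WT and 98.1% and 97.2% in KO. The summed level was 5261 ± 1190 CPM in WT and 4128 ± 1101 CPM among KO libraries (SD, n = 2 each), with overlapping libraries. Coding sequences of the 3 genes are 48.4% to 49.7% identical in pairs.

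Among the activating enzymes, Acsl4 rose and the 2 abundant ones, Acsl1 and Acsl5, did not pass. ACSL4 prefers arachidonic acid and related polyunsaturated fatty acids. Acsl4 (ENSMUSG00000031278, chromosome X, 142317993 to 142390535) was at 25.7 and 27.3 CPM in WT and at 51.5 and 63.6 CPM in KO, with clear separation and little spread. It rose 2.17-fold (log2 fold change 1.12, SE 0.191, adjusted p = 0.0327), from 26.5 ± 1.13 to 57.5 ± 8.58 CPM (SD, n = 2 each), and was called in all 12 alternative settings, with log2 fold changes between 0.95 and 1.26. Its nearest relative of the 4, Acsl3, with 65% identity of the coding sequences, encodes an enzyme of the endoplasmic reticulum and lipid droplets (chromosome 1, 78657825 to 78707743). Acsl3 was at 12.1 and 16.5 CPM in WT and 16.9 and 21.9 CPM in KO, narrowly without overlap, and its log2 fold change of 0.44 (SE 0.231, adjusted p = 0.498) did not pass. Acsl3 shares 244 exon bases with Utp14b on the same strand, and reads there may belong to either gene.

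Acsl1, the main synthetase of liver and a classic PPARα target (chromosome 8, 46471037 to 46536051), was at 1949 and 1959 CPM in WT and 1495 and 1715 CPM in KO. The log2 fold change was -0.28 (SE 0.172, adjusted p = 0.569). Acsl5, found on mitochondria and the endoplasmic reticulum (chromosome 19, 55251938 to 55297720), was at 502 and 693 CPM in WT and 353 and 484 CPM in KO. Its log2 fold change of -0.51 (SE 0.233, adjusted p = 0.415) did not pass either, and 404 of its exon bases overlap Zdhhc6 on the opposite strand, from which this library type cannot separate it. For both genes the KO libraries lay below the WT libraries. Acsl4 made up 1.03% (95% Wilson interval 0.974 to 1.1) and 1.01% (0.954 to 1.08) of the reads of the 4 ACSL genes in WT, and 2.69% (2.58 to 2.8) and 2.78% (2.68 to 2.89) in KO. Acsl1 supplied 72.7% to 78.3% in all libraries. The summed level was 2592 ± 146 CPM in WT and 2100 ± 261 CPM among KO libraries (SD, n = 2 each).

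Divided by the length of the longest protein-coding transcript, levels of the 10 genes spanned more than 3 orders of magnitude in WT. In CPM per kilobase, Fabp1 stood first at 9286 ± 2068, followed by Slc27a2 at 786 ± 6.27, Acsl1 at 501 ± 1.72, Acsl5 at 141 ± 31.8, Fabp2 at 126 ± 45.7, Cd36 at 45.2 ± 9.06, Slc27a4 at 13.0 ± 1.06, Acsl4 at 5.02 ± 0.214, Fabp5 at 3.95 ± 1.67 and Acsl3 at 3.62 ± 0.783 (SD, n = 2 each). Acsl5 and Fabp2 overlapped, and so did Fabp5 with Acsl4 and with Acsl3. In KO the first 5 places were the same, and below them Fabp5 was at 44.2 ± 34.5, Acsl4 at 10.9 ± 1.63, Slc27a4 at 9.73 ± 2.22, Cd36 at 9.47 ± 0.391 and Acsl3 at 4.91 ± 0.894 CPM per kilobase. Cd36 thus went from clearly above Slc27a4 in WT to overlapping with it in KO. Fabp5, overlapping with Acsl4 and Acsl3 in WT, was above both in each KO library, and its KO range overlapped that of Fabp2.

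**Figure D3:**
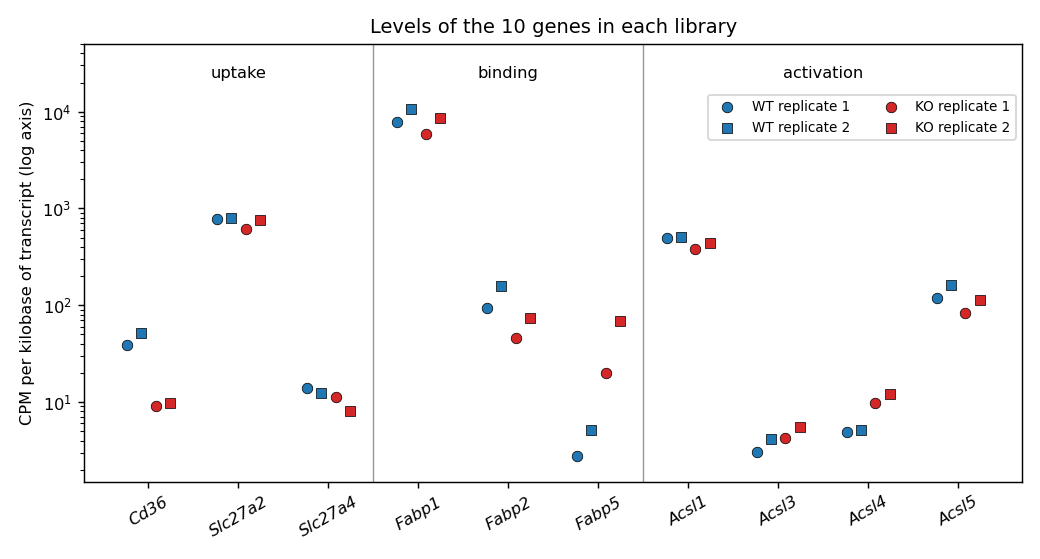
Level of each gene in each of the 4 libraries, in CPM per kilobase of transcript on a log axis; blue is WT, red is KO, circles are replicate 1 and squares replicate 2. Fabp1 lies between 5942 and 10748 in all libraries, while Fabp5 goes from 2.77 and 5.14 in WT to 19.8 and 68.6 in KO, and Cd36 from 38.8 and 51.6 to 9.20 and 9.75.

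Relatives of the 10 genes and proteins that act beside them were read from the same fit. Over all tested genes, edgeR gave an unadjusted p under 0.05 for 13%, and DESeq2's Wald test called 574. Of 12 tested genes on a list of other transport and binding genes, edgeR called 1 lower and 0 higher, 2 had an unadjusted p under 0.05 and DESeq2 called 2, with a median log2 fold change of -0.03. The one that edgeR called was Mfsd2a, the transporter of lysophosphatidylcholine that carries docosahexaenoic acid, which went from 113 and 160 CPM in WT to 48.9 and 58.7 CPM in KO (log2 fold change -1.34, adjusted p = 0.0305). Slc27a5, the bile acid CoA ligase of hepatocytes, had -0.21 (adjusted p = 0.696), Got2, a mitochondrial aminotransferase also described at the plasma membrane, had -0.26 (0.59), and Slc27a1, the insulin-responsive transporter of muscle and fat, had -0.84 (0.112; 0.0416 with DESeq2's Wald test, 0.0155 without the filter and 0.0258 without WT replicate 2). Of 9 other tested acyl-CoA synthetase genes, edgeR called 1 higher and 1 lower, with a median of -0.33. Acsm2, a medium-chain synthetase of mitochondria, rose from 13 and 7 WT reads to 146 and 118 KO reads (log2 fold change 3.61, adjusted p = 0.00583). Acss3, a short-chain synthetase of mitochondria, fell from 31.4 and 29.3 to 14.3 and 12.7 CPM (log2 fold change -1.17, adjusted p = 0.0239; 0.0562 with library size alone). The medium-chain synthetase gene Acsm1 had -0.04 and Acsf2 had -0.33, and neither passed. Of 5 tested genes of acyl-CoA binding proteins none was called by edgeR; 1, Acbd4, had an unadjusted p under 0.05 and was called by DESeq2. The main one, Dbi, had a log2 fold change of -0.33, the peroxisomal tether gene Acbd5 had -0.20 and Acbd4 had -0.80 (adjusted p = 0.0789).

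Genes that supply fatty acids at the cell surface or act on CD36 were also read. Here too the shares over all tested genes were 13% with an unadjusted p under 0.05 and 574 genes called by DESeq2. Of 18 tested, edgeR called 1 higher and 0 lower, 3 had an unadjusted p under 0.05, and DESeq2 called 2; the median log2 fold change was -0.04. The higher gene was Lpl, the lipase that frees fatty acids from lipoproteins and is low in adult liver, at 4.76 and 7.15 CPM in WT and 14.3 and 17.7 CPM in KO (log2 fold change 1.43, adjusted p = 0.0369; 0.0528 with library size alone). The lipase inhibitor gene Angptl4 had 0.14, and Vldlr, the receptor of very-low-density lipoprotein, had -1.68 (edgeR adjusted p = 0.0612), and 9 of 12 alternatives called it lower, DESeq2's Wald test among them (0.000415). Among 27 tested transcription factor and cofactor genes, edgeR called 1 lower and 0 higher, 7 had an unadjusted p under 0.05 and DESeq2 called 4, with a median of 0.03. The one that edgeR called was Pparg, which encodes PPARγ, at 15.4 and 22.1 CPM in WT and 7.77 and 7.32 CPM in KO (log2 fold change -1.31, SE 0.231, adjusted p = 0.0352; 0.0607 with library size alone). Ppara had 0.29 (SE 0.27, adjusted p = 0.751), with overlapping libraries, and its partner Rxra had 0.28. Hnf4a, a hepatocyte identity factor, had 0.31, and the xenobiotic receptors Nr1i2 and Nr1i3 had -0.53 and -0.32, none of them called by edgeR. Besides Pparg and Nr1i2, the genes with an unadjusted p under 0.05 were Onecut1 (1.96), Bcl6 (1.24), Rxrg (-1.15), Ppargc1a (-0.69) and Nfe2l2 (-0.49).

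Of 38 other tested targets of PPARα, 27 had both KO libraries below both WT libraries, where 20.4% of all tested genes did. In 4 both KO libraries were above both WT libraries, where 21.6% of all tested genes did so. An unadjusted p under 0.05 was found for 17, against 13% of all tested genes. The log2 fold change was positive for 6, where the median over all tested genes was 0.0058. By edgeR's test 5 were called lower and 1 higher, and the median log2 fold change of the list was -0.34. DESeq2 called 12, against 574 over all tested genes. The lower ones by edgeR were the thioesterases Acot3 (-1.91) and Acot2 (-1.29), the pantetheinase Vnn1 (-1.51), the peroxisomal thiolase Acaa1b (-1.29) and the fatty aldehyde dehydrogenase Aldh3a2 (-0.92). Of these, Acot2 lost its call with library size alone (adjusted p = 0.103) and Aldh3a2 without WT replicate 2 and without KO replicate 1, with an adjusted p of up to 0.0933. Cyp4a31, a hydroxylase of fatty acids, was the higher one (adjusted p = 0.0434), but it lost its call with library size alone (adjusted p = 0.0717) and without WT replicate 2. The fatty acid hydroxylase genes Cyp4a10 and Cyp4a14 had -1.39 and -1.46 and were not called by edgeR (adjusted p = 0.089 and 0.106), while DESeq2's Wald test called both (0.000482 and 0.000521). When 1 library was left out, Cyp4a10 ranged from -0.95 to -2.03 and was called in 3 of 4 fits, and Cyp4a14 from -0.99 to -2.14 and was called in 4 of 4.

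**Figure D4:**
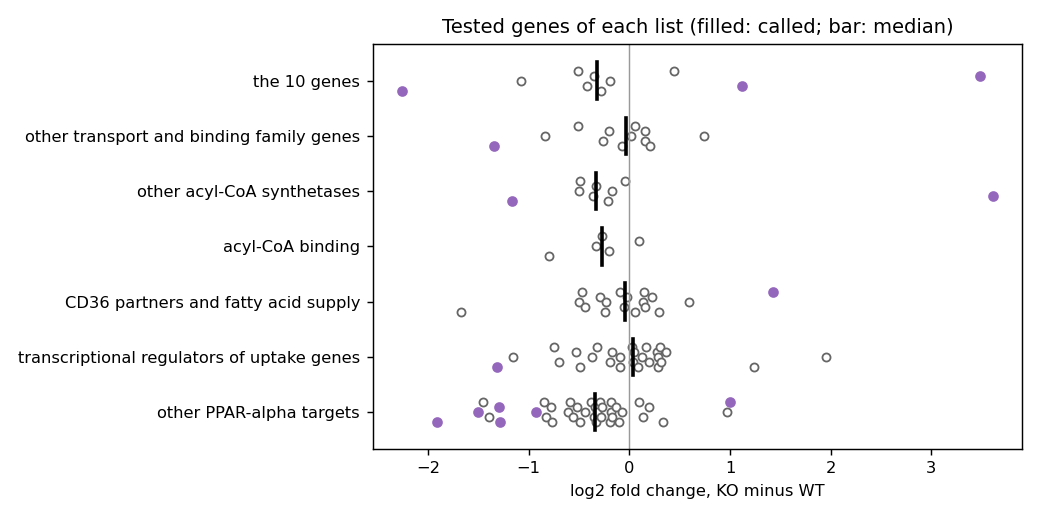
Log2 fold change of KO minus WT (x axis) for each tested gene of 7 lists (rows), with filled points for called genes and a black bar for the median of a list. The 10 genes have called points at -2.25, 1.12 and 3.48, and the medians of the lists run from -0.34 to 0.03.

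Markers of other cell types are given because Cd36, Fabp5, Acsl4 and Lpl are also expressed outside hepatocytes. The 14 markers of Kupffer cells, the resident macrophages, summed to 292 and 374 CPM in WT and 500 and 486 CPM in KO. Of them 13 had a positive log2 fold change with libraries that did not overlap (median 0.82), where 21.6% of all tested genes did so with KO higher, and Marco (1.66, adjusted p = 0.0155) and Csf1r (0.97, adjusted p = 0.0478) were called; Csf1r lost its call when replicate 1 of WT or of KO was left out, and under library size alone (adjusted p of up to 0.0832). The exception was the iron exporter Slc40a1 (-0.11). The signs of these 13 ratios are those of Fabp5, Acsl4 and Lpl and opposite to that of Cd36, and the part of these cells in those results was not tested. The 12 markers of liver endothelial cells summed to 189 and 245 CPM in WT and 244 and 189 CPM in KO. None was called by edgeR. Lyve1 (-1.40, adjusted p = 0.0623) was the only 1 with an unadjusted p under 0.05, which 13% of all tested genes had. DESeq2 called 1 and limma-voom 0. The 8 fat cell markers summed to 40.3 and 88.1 CPM in WT and 19.5 and 36.9 CPM in KO. Of the 7 tested, edgeR, DESeq2 and limma-voom each called 0, and 2 had an unadjusted p under 0.05. These went opposite ways: Cidec was lower in KO and Adrb3 was higher (log2 fold change 0.89). Cidec, which hepatocytes with lipid droplets also express, was at 27.2 and 58.3 CPM of these sums in WT and at 5.80 and 13.5 CPM in KO (log2 fold change -2.15, edgeR adjusted p = 0.0711), and 7 of 12 alternatives called it lower. The defining fat cell gene Adipoq was counted with 1 and 70 reads among WT and 0 and 71 among KO libraries. For Lep the reads were 0 and 41 in WT, then 0 and 36 in KO. Cd36 was at 132 CPM in WT replicate 1 and 175 CPM in WT replicate 2, where these reads were found, and at 31.3 and 33.1 CPM in the same order of KO libraries; the part of fat cells in the Cd36 result was not tested. Fabp4, the fat cell and macrophage type of FABP, had 4.50 and 16.2 CPM in WT and 2.83 and 11.7 CPM in KO. Summed levels of the remaining lists in WT and KO were 174 and 241 against 177 and 186 CPM for stellate cells, 26.8 and 40.1 against 34.5 and 45.1 CPM for bile duct cells, 2.26 and 2.26 against 2.05 and 2.45 CPM for squamous epithelium, and 2.24 and 2.18 against 3.48 and 4.22 CPM for lymphocytes and neutrophils. Proliferation markers summed to 5.0 and 5.04 CPM in WT and 1.90 and 2.15 CPM in KO. All 4 tested had both KO libraries below both WT libraries, as 20.4% of all tested genes did. Their median log2 fold change was -1.24, and edgeR called 1 of them. Skeletal muscle markers summed to 0.849 and 0.736 against 0.779 and 1.27 CPM.

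Across the settings tried, Cd36 and Acsl4 were called in each of the 12 alternatives and Fabp5 in 6 of them. The direction of all 10 genes was the same in each alternative. The alternatives reused the same libraries. For all genes but Fabp1 these did not overlap between genotypes, so a change of sign could hardly occur.

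**Figure D5:**
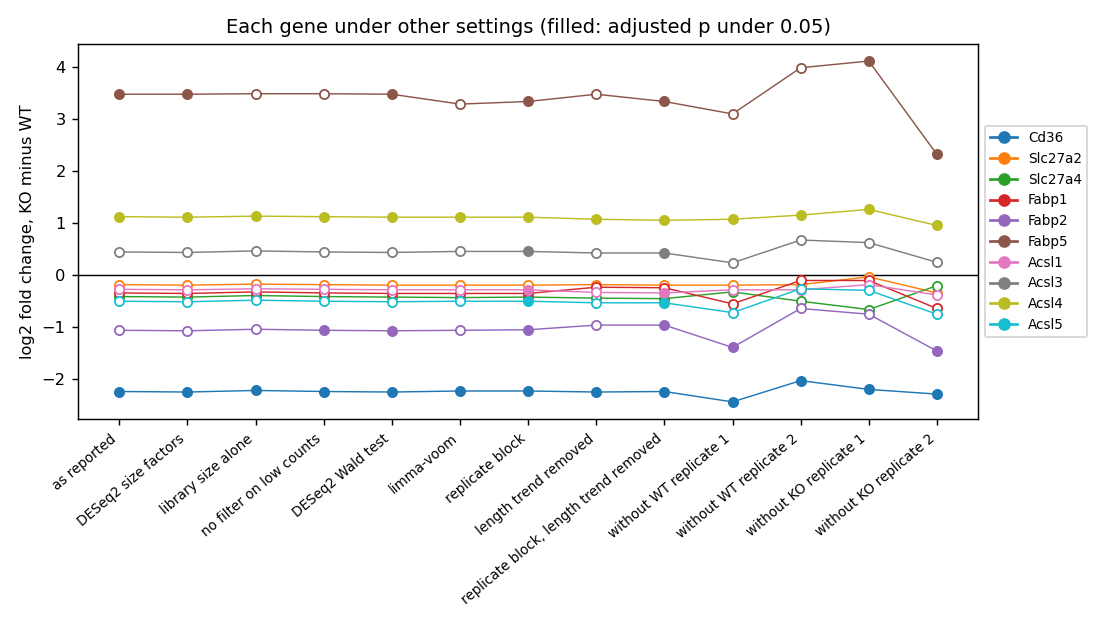
Log2 fold change of each gene (y axis, KO minus WT) as reported and under 12 alternative settings (x axis), with filled points where the adjusted p was under 0.05. Cd36 stays between -2.45 and -2.04 and Acsl4 between 0.95 and 1.26, while Fabp5 ranges from 2.32 to 4.12 and Fabp2 from -1.47 to -0.65.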

How the data were processed

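Liver polyadenylated RNA from WT and KO mice was sequenced as paired reads of 101 bases with a TruSeq v2 kit, per the labels; the kit does not mark strand. The authors deposited whole-number counts of reads per Ensembl gene, not normalised, made from mm10 alignments, with TopHat2 2.1.1 and HTSeq 0.6.0 named as tools, per the submitters' processing notes. Which annotation and counting mode they used is not given in the sources used here. GENCODE M21 named 35449 of 37315 identifiers.

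From these counts, genes were filtered with filterByExpr (minimum count 10, minimum total 15; 13836 kept), scaled by TMM and tested with edgeR 4.0.16 (R 4.3.3) with a robust, two-sided quasi-likelihood F test on genotype alone. Benjamini-Hochberg adjustment ran over the 13836 genes. The SE comes from the log2 fold change and the root of its F statistic. Levels are TMM-scaled CPM; 1 read was worth 0.0224 to 0.0253 CPM. Within a genotype, libraries differed by a chi-square of 86.5 (WT) and 101 (KO) per degree of freedom, more than counting noise, so they are not 1 library deposited under 2 names; this does not show that they are separate animals. The alternatives were DESeq2 1.42.0 size factors or library size alone, no filter, DESeq2's Wald test, limma-voom (limma 3.58.1), a term for replicate number, removal of a per-library lowess trend on transcript length, both together, and each library left out, where the remaining library of that genotype is assumed to vary like the pair of the other. The fit was tested on simulated counts for KO against WT (3 runs of 13597 to 13619 genes, 200 changed). It recovered 46% of 2-fold and 99.7% of 4-fold changes, with 3.04% false calls. In the simulation the spread of a gene depended on its level alone. There was no effect of replicate number or transcript length, so these rates may not hold for the real libraries. Near-identical copies were sought with BLAST+ 2.17.0 at an identity of at least 90% over at least 100 bases.

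The members and the gene lists were chosen with earlier results of these data known. Besides the 10 genes, the rule named Fto, the called genes of each list and up to 3 of its most abundant. Slc27a1, Acbd4, Vldlr, Ppara, Nr1i2, Nr1i3, Cyp4a10, Cyp4a14, Adipoq, Lep, Lyve1 and the low-count copies were named after their values were seen. So were Onecut1, Bcl6, Rxrg, Ppargc1a and Nfe2l2. Some genes that the rule named are not reported here.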

Additional observations from a re-analysis of the deposited data

How the results depend on the processing

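The number of genes called over the whole table was 264, against 829 without the low-count filter, 574 with DESeq2's Wald test, 447 with the trend on transcript length removed, and 474 to 571 when 1 library was left out. With library size alone it was 176, of which 175 were among the 264. A replicate block, fitted as a term for the replicate number, gave 2729 calls, and the replicate block with the length trend removed gave 2711. Deviations of equal-numbered libraries from their genotype means correlated with r = 0.427 across genes, but with 2 pairs and no label that ties them to animals or batches, the numbers are not taken as a pairing. Of the 10 genes 3 were called; the replicate block called 9, all but Slc27a2, and 8 with the length trend removed as well, while leaving out 1 library gave 2 to 4. Over 120 values of the 10 genes under alternatives, 99 kept their side of the threshold, 6 lost a call, all Fabp5, 15 gained one and none changed sign. Among 38 other named genes, 10 values of genes not called changed sign. When 1 library was left out, Ppara ranged from -0.01 to 0.64, Slc40a1 from -0.4 to 0.13, Fabp4 from -1.87 to 0.68, Adipoq from -8.28 to 5.04 and Lep from -7.48 to 7.25. Without KO replicate 1, Fabp4 was at 0.18, Adipoq at 0.95 and Lep at 0.76, and with the length trend removed Adipoq was at 0.03. The cause was not tested. With 2 libraries a genotype and a fit on genotype alone, the simulated recovery of 2-fold changes was 46%. Recovery of smaller differences, such as those of Acsl1, Acsl5, Fabp1, Slc27a2 and Slc27a4, was not tested. The replicate block, which assumes a pairing that no label gives, called Acsl1 (adjusted p = 0.0287), Acsl5 (0.000277), Fabp1 (0.00366) and Slc27a4 (0.00388). It did not call Slc27a2 (0.154). The annotation and counting options behind the files are unknown, and the counts do not separate transcripts of a gene.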
